A study of Rattus norvegicus with 2 samples.

Results

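The neurotrophins, their receptors and the EGF receptor family are described here through 8 genes: Bdnf, Ntf3, Ntrk2, Ntrk3, Ngfr, Egfr, Erbb2 and Erbb3. They were chosen by name and found by matching the RefSeq accession of each array probe to rat symbols. All 8 had at least 1 probe, among 15443 genes that could be named on the array. Total RNA came from primary neural stem cells of the cerebral cortex of SD rat embryos at day 14, grown in N2 medium with 10 ng/mL bFGF. The cells were transiently transfected by nucleofection with 4 µg of MSCV-IRES-EGFP, the empty vector, or of the same plasmid carrying rat Bcl-2, an inhibitor of mitochondrial cell death. They then stayed in N2 with bFGF, or were held for 2 days without bFGF in a medium named NB, so that on the withdrawal array the medium differed along with bFGF. On that array RNA of vector cells without bFGF was labelled red (Cy5) and RNA of vector cells with bFGF green (Cy3). On the other array the red label is given as Bcl-2 cells with bFGF and the green label as vector cells with bFGF. All groups thus carry EGFP from a plasmid in an unstated share of cells, and the labels give neither sorting nor the number of animals. Each comparison rests on 1 array, there were 0 dye swaps, and no difference below has a replicate check or a p-value. The question behind the choice of genes was which other survival and growth signals cells have once bFGF is gone.

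BDNF and neurotrophin-3 are secreted neurotrophins. BDNF acts mainly through the receptor tyrosine kinase TrkB, the product of Ntrk2, and neurotrophin-3 through TrkC, the product of Ntrk3. The p75 receptor, the product of Ngfr, binds all neurotrophins and can signal survival or death. Egfr, Erbb2 and Erbb3 encode receptors for EGF-like growth factors that pair with each other. ERBB2 has no known ligand of its own, and ERBB3 binds neuregulins but has little kinase activity. EGF is used beside bFGF to grow neural stem cells, and both receptor families feed the RAS to ERK and the PI3K to AKT routes.

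Rat Bdnf has several transcription starts, and the sequence before one of them is shown because Bdnf transcription is known to follow neuronal activity through a cAMP response element. RefSeq promoter entries of build GRCr8 were found for 4 of the 8 genes, with 6 starts for Bdnf, 3 for Ntf3 and 1 each for Egfr and Erbb2. The core of the element, TGACG, or CGTCA on the other strand, was sought in the 250 bases before each start. Of the 6 Bdnf windows 1 held it, with its last base 31 bases before the start, and it was found in 0 windows of the other 3 genes. Among all 33469 windows of this length 18.2% held the core. The palindrome TGACGTCA, which contains that core, was in 1.59% of all windows and in 0 of these. The Bdnf window with the core and the Egfr window, which has none, run 5′ to 3′ on the plus strand up to the base before the start, with the core in capitals.
Bdnf, chr3:116637608-116637857, GRCr8: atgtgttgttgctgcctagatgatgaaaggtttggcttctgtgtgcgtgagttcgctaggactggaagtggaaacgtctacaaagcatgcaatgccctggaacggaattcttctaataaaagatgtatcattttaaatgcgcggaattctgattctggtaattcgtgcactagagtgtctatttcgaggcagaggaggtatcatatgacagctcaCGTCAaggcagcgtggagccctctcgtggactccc
Egfr, chr14:95378376-95378625, GRCr8: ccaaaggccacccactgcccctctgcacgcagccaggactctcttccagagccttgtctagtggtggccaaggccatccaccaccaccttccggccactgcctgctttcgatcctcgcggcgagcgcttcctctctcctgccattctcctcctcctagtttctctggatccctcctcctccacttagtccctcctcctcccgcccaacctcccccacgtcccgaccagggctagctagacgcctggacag
A match is a description of letters, and the arrays do not tell the Bdnf starts apart.

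Of the 8 genes, 6 were measured on each array, meaning that at least 1 probe was well above background in at least 1 channel. They were Bdnf, Ntrk2, Ntrk3, Ngfr, Egfr and Erbb2, while Ntf3 and Erbb3 were not well above background in any of the 4 channels. As labelled, 5 of the 6 had red over green above 0 on the withdrawal array and 1 below, and all 6 were below 0 on the Bcl-2-labelled array. Of all measured genes 54.2% and 48.2% were above 0. The median log2 ratio of the 6 was 0.37 on the withdrawal array, where that of all 10852 measured genes was 0.031. It was -0.28 on the Bcl-2-labelled array, where that of all 10241 measured genes was -0.013. A gene was called if its log2 ratio was at least 1 from 0 and its kept probes did not differ in sign. By this rule 0 of the 6 were called on the withdrawal array, where 2.89% of all measured genes were, and 0 of the 6 on the Bcl-2-labelled array, where 2.56% were. At such background shares, 0 calls among 6 genes sets them apart in no way.

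The direction of these ratios is not settled. Both arrays name the same control in green, yet over all gene spots their log2 ratios had a correlation of r = -0.67, or -0.12 by the ratio that Feature Extraction, the scanner software, reports. Values are given red over green as labelled, and with the sign of an array turned each of its values changes sign. The medians would then be -0.37 on the withdrawal array and 0.28 on the Bcl-2-labelled array. Because the arrays are labelled as sharing a control, the values on both are given side by side and are not counted as 2 separate observations.

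**Figure D1:**
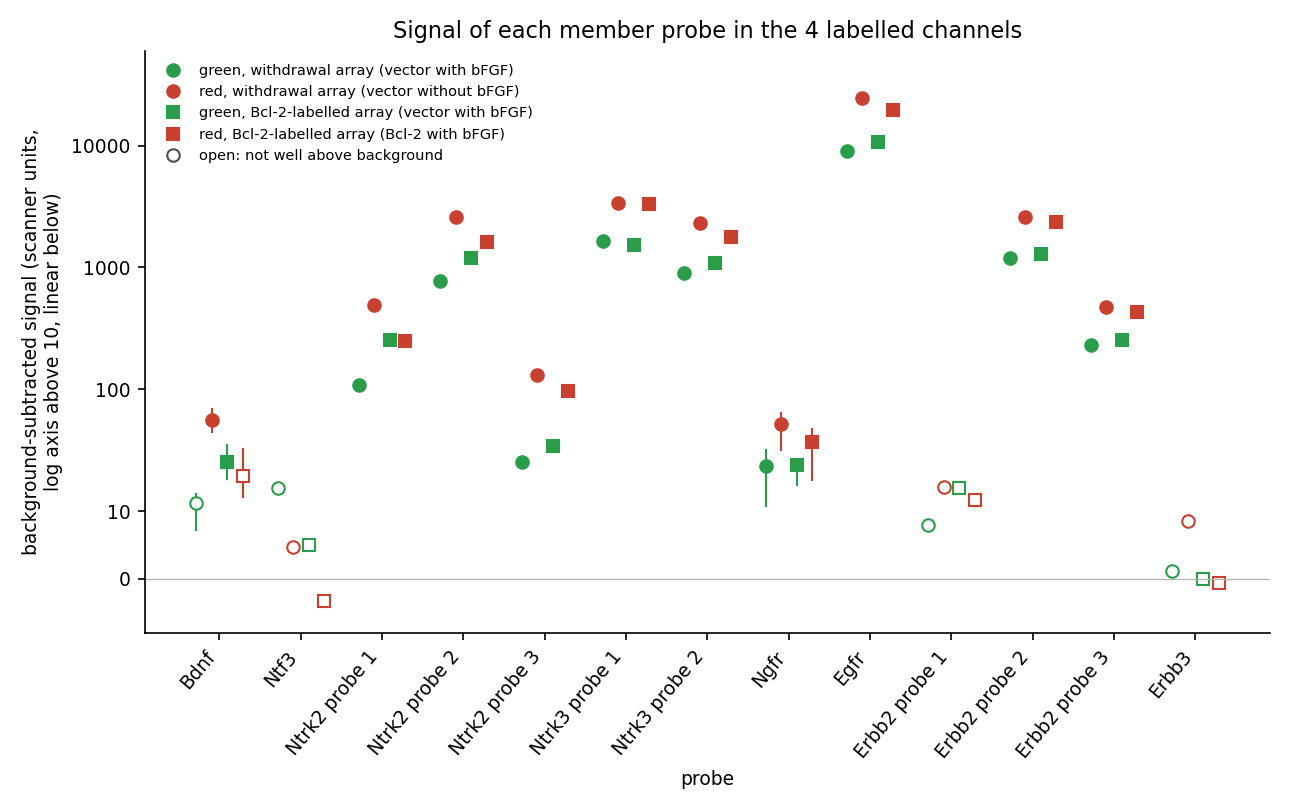
Background-subtracted signal (y axis, scanner units, logarithmic above 10 and linear below) of each probe of the 8 genes (x axis) in the 4 channels, circles for the withdrawal array and squares for the Bcl-2-labelled array. Points are single spots, or the median of repeated spots for Bdnf and Ngfr with bars from the lowest to the highest spot; open symbols are not well above background, as for Ntf3 and Erbb3, and Egfr lies between 9014 and 24621.

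Among the ligands, Bdnf was dim and seen in 1 channel of each array. Its probe (NM_012513) was printed 10 times, and 1 spot on the withdrawal array was left out as an outlier. On the withdrawal array its background-subtracted red signal, vector cells without bFGF, had a median of 55.9 scanner units (range 44.5 to 68.4 over 9 spots), and all 9 spots were well above background. The green signal had a median of 11.7 (7.27 to 13.8), and 0 of 9 spots were well above background. In this channel the negative control spots had a median of -5.37, with a 95th percentile of 0.51. On this array Bdnf was thus measured in red alone.

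On the Bcl-2-labelled array Bdnf was well above background in green alone. Green, vector cells with bFGF, had a median of 25.2 (18.1 to 34.9 over 10 spots) with 9 of 10 spots well above background. Red, labelled Bcl-2 with bFGF, had a median of 19.2 (13.0 to 32.2) with 0 of 10. The scanner units of red and green differ in scale, so these numbers are compared only after normalization. The normalized log2 ratio was 0.40 ± 0.094 (SD over 9 spots of 1 array) on the withdrawal array, against -0.10 ± 0.091 (SD over 10 spots) on the other. On the Bcl-2-labelled array its spots lay on both sides of 0, from -0.20 to 0.072. There 70.0% of all measured genes were at least as far from 0. Set against the dim channel's own signal, Bdnf was brighter by 1.32-fold in red of the withdrawal array and by 1.07-fold in green of the Bcl-2-labelled array. These folds restate the log2 ratios and are open to dye bias.

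The size of the Bdnf difference depended on the processing, and which step moved it was not tested. With the background-correction offset lowered to 10, the log2 ratio was 0.71 on the withdrawal array and -0.14 on the Bcl-2-labelled array. Without background subtraction it was 0.35 and -0.15, and with median centring 0.17 and -0.14. The deposited Feature Extraction ratio gave a log2 ratio of 1.27 ± 0.36 (SD over 9 spots) and -1.04 ± 0.28 (SD over 10 spots). By that ratio Bdnf passes the 2-fold limit on both arrays, among 10.4% and 10.2% of all genes. On the authors' deposited value table Bdnf was at 0.38 and -1.01. The spot left out as an outlier on the withdrawal array also had a Feature Extraction ratio of 0.38. The 9 spots used there ran from 0.59 to 1.73 by that ratio. For probes printed 10 times this table equalled the scanner ratio within 0.05 for 83.9% of 1387 probes on the withdrawal array, and the Bdnf probe was not among them.

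Ntf3, the gene of neurotrophin-3, had 1 probe (NM_031073) printed once. Its background-subtracted signal on the withdrawal array was 15.6 in green and 4.68 in red. The Bcl-2-labelled array gave 5.03 in green and -3.35 in red, and none of these was well above background. Its ratio is therefore not given. Ntf4, another neurotrophin gene, was not well above background on either array.

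Among the receptors, Ntrk2 had the ratio farthest from 0 of the 6 measured genes on both arrays. On the withdrawal array its 3 probes lay at 1.01, 0.83 and 0.47, all above 0. The gene value, their median, was 0.83 (-0.83 with the sign turned), a 1.78-fold higher signal in vector cells without bFGF. Of all measured genes 3.93% were at or above this value. Median centring in place of loess normalization gave 1.09, past the 2-fold limit that 4.67% of all genes then passed, and the Feature Extraction ratio gave 1.06. At a 1.5-fold limit Ntrk2 was the 1 member called, among 10.7% of all genes.

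The brightest Ntrk2 probe (NM_001163168), at a ratio of 0.83, read 768 in green and 2588 in red of the withdrawal array, and 1185 in green and 1605 in red of the Bcl-2-labelled array. The middle one (NM_012731), at 1.01, read 109 in green and 492 in red, and then 252 in green and 247 in red. The dimmest, of the same accession and at 0.47, read 25.3 in green and 132 in red, and then 34.2 in green and 97.0 in red.

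On the Bcl-2-labelled array the Ntrk2 probes did not share a sign. The bright probe lay at -0.73 and the middle one at -0.69, while the dimmest lay at 0.16, or 0.72 by the Feature Extraction ratio. The gene value was -0.69 (0.69 with the sign turned), a 1.61-fold lower red signal, and 6.47% of all measured genes were at least as far from 0. The authors' deposited value table holds only the dimmest of these probes, at 1.20 and 0.72, so that by the table alone Ntrk2 is higher in red on both arrays.

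Ntrk3 had 2 probes of different RefSeq transcripts, both bright. The first (NM_001270656) read 1641 in green and 3388 in red of the withdrawal array, and 1536 and 3308 on the other. The second (NM_019248) read 896 in green and 2295 in red, and then 1094 and 1776. Their log2 ratios on the withdrawal array were 0.22 and 0.47, with a gene value of 0.34. The Bcl-2-labelled array gave -0.092 and -0.46, with a gene value of -0.28. The probe of the second transcript was thus farther from 0 on both arrays, in opposite directions.

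Ngfr, the gene of the p75 receptor, was dim in all channels and did not differ between channels beyond the spread of its spots. Its probe (NM_012610) was printed 10 times. On the withdrawal array it read a median of 23.3 in green (10.95 to 31.97) and 51.7 in red (31.95 to 64.3), with 8 of 10 green and all 10 red spots well above background. Over the 8 spots of the Bcl-2-labelled array that were not outliers, it read 23.7 in green (16.3 to 25.8) and 36.8 in red (18.0 to 47.0), with 6 of 8 well above background in each. The log2 ratio was -0.0059 ± 0.12 (SD over 10 spots) and -0.0099 ± 0.080 (SD over 8 spots). Its spots lay on both sides of 0 on each array. Ngfr is also a marker of neural crest and Schwann cells, and Cdh19, Gfra3 and Tfap2a of that list of 13 genes on the array were not well above background in any channel.

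**Figure D2:**
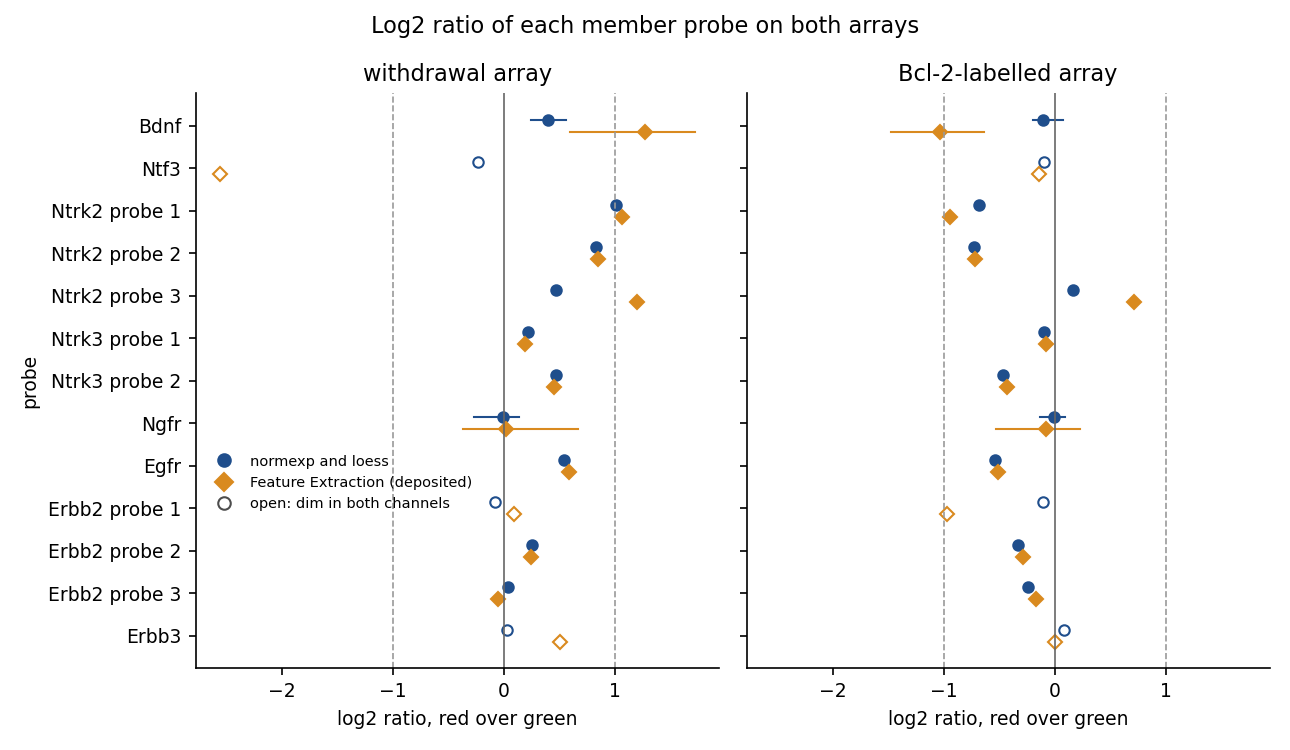
Log2 ratio of red over green (x axis) for each probe (y axis) on the withdrawal array (left) and the Bcl-2-labelled array (right), by normexp and loess (circles) and by Feature Extraction (diamonds); bars span the lowest to the highest spot of Bdnf and Ngfr, and dashed lines mark 2-fold. Bdnf moves from 0.40 to 1.27 and from -0.10 to -1.04 between the methods, and the dimmest Ntrk2 probe, at 0.16, lies on the other side of 0 from the other 2 Ntrk2 probes on the Bcl-2-labelled array.

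Egfr was bright in all 4 channels, with red over green above 0 on the withdrawal array and below 0 on the other. Its 1 probe (NM_031507) read 9014 in green and 24621 in red of the withdrawal array, and 10790 in green and 19586 in red of the Bcl-2-labelled array. All 4 values were well above background and none was saturated. The log2 ratio was 0.55 (-0.55 with the sign turned) on the withdrawal array, a 1.46-fold higher signal in vector cells without bFGF. The Bcl-2-labelled array gave -0.54 (0.54 with the sign turned), a 1.45-fold lower red signal. Of all measured genes 12.6% and 10.6% were at least as far from 0. The Feature Extraction ratio was 0.59 and -0.51, each with a deposited error of 0.21 on the log2 scale, which covers spot noise and no difference between cultures.

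Erbb2 had 3 probes of 1 transcript (NM_017003), of which 2 were kept. The brighter read 1185 in green and 2604 in red of the withdrawal array, and 1279 and 2364 on the Bcl-2-labelled array. The other read 232 and 473, and then 254 and 432. The ratios of these probes were 0.26 and 0.039 on the withdrawal array, against -0.33 and -0.24 on the other, giving gene values of 0.15 and -0.28. By the Feature Extraction ratio the dimmer probe lay below 0 on the withdrawal array, at -0.057. The remaining probe read between 7.87 and 15.7 in the 4 channels and was not well above background.

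Erbb3 had 1 probe (NM_017218) printed once, which read 1.08 in green and 8.59 in red of the withdrawal array. The other array read -0.11 in green and -0.61 in red. The ErbB family was therefore represented here by Egfr and Erbb2, with Erbb4, the remaining receptor and like ERBB3 a neuregulin receptor, at 0.16 and -0.077.

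**Figure D3:**
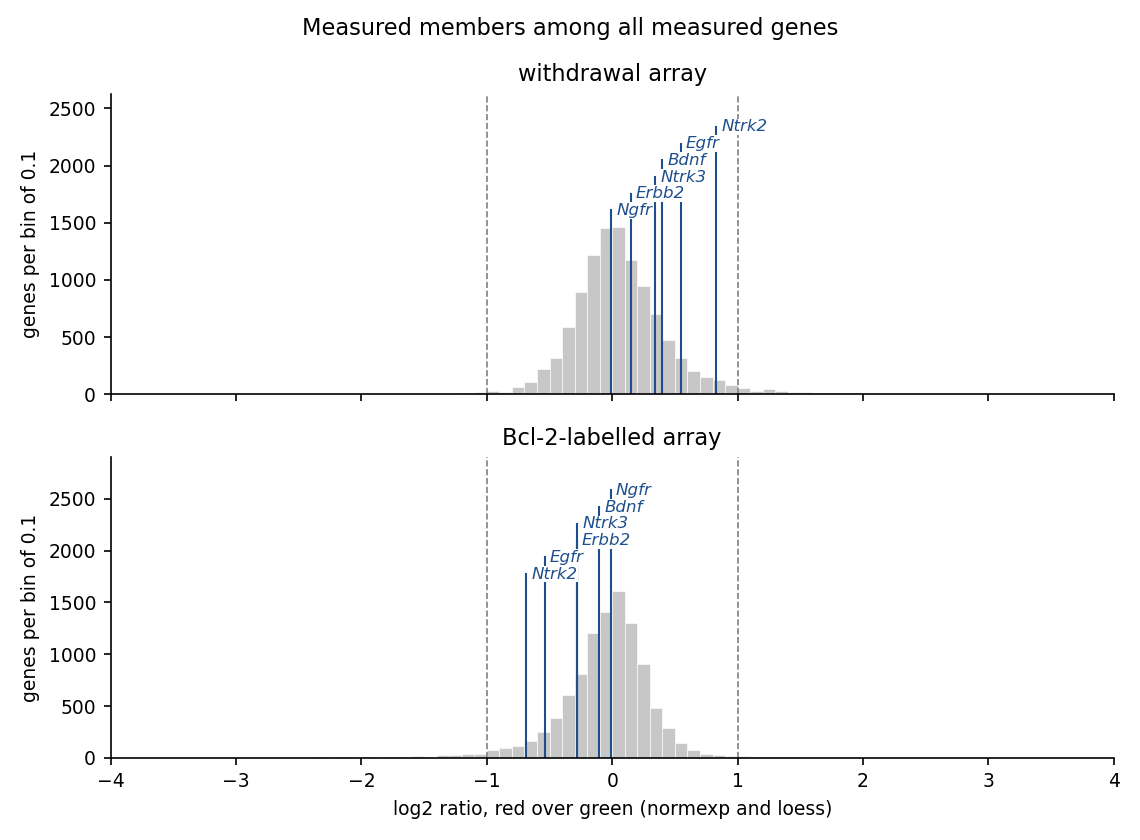
Number of genes (y axis) per bin of 0.1 in the log2 ratio of red over green (x axis) among 10852 genes of the withdrawal array (top) and 10241 of the Bcl-2-labelled array (bottom), with lines at the 6 measured genes and dashed lines at 2-fold. The 6 lie between -0.0059 and 0.83 there and between -0.69 and -0.0099 on the Bcl-2-labelled array, inside the 2-fold limits.

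Of the 6 genes 5 had opposite signs on the arrays, Ngfr being the exception, while 74.1% of the 10162 genes measured on both arrays did. Levels of a probe can be compared between channels after scaling the arrays to each other. Over the 10 probes measured on both arrays, the green channels, which carry the same label, differed by a median of 0.29 on the log2 scale, and green of the Bcl-2-labelled array was the higher for all 10. Green of the Bcl-2-labelled array and red of the withdrawal array, which carry different labels, differed by a median of 0.054. The former was nearer to red than to green of the withdrawal array for 7 of the 10 probes. Of these probes 3 were of Ntrk2, and the same counts over all probes were not made. The counts over these 10 probes therefore cannot be read as a trait of the 6 genes.

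Single probes serve as examples. Each level was built from the scaled mean of the channels of an array and the log2 ratio. Where the ratios on the arrays are opposite and alike in size, these channels therefore come out close by construction. Such levels restate the opposite ratios and are not separate evidence on the labels. The Egfr probe had log2 levels of 14.08 in green of the Bcl-2-labelled array, 14.09 in red of the withdrawal array and 13.54 in its green. The bright Ntrk2 probe had 10.93, 10.92 and 10.09. Red of the Bcl-2-labelled array differed from green of the withdrawal array by a median of 0.066 over the 10 probes. On net signals with no normexp, loess or Aquantile the count of 7 became 1, and the cause was not tested. Red and green scanner units differ in scale, so unnormalized levels cannot show which channel is nearer. Whether the channels were labelled otherwise than stated was not tested.

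**Figure D4:**
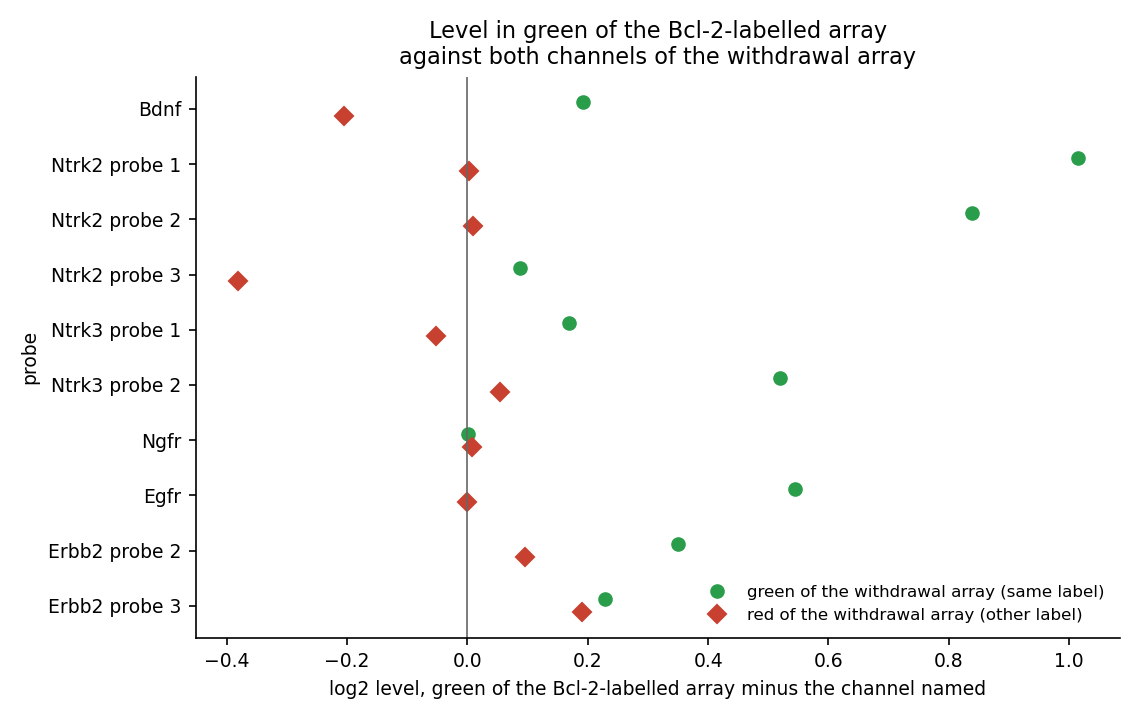
Difference in log2 level (x axis) between green of the Bcl-2-labelled array and either channel of the withdrawal array, for the 10 probes measured on both arrays (y axis); circles set it against green, diamonds against red, after normexp, loess and Aquantile scaling. The circles lie between 0.0012 and 1.01, and the diamonds between -0.38 and 0.19.

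Other genes of these pathways were described from lists by role, with 163 genes beside the 8 on the array. On the withdrawal array 146 of them were measured and their median was 0.11 on the log2 scale; 3 were called higher and 1 lower, where 2.42% and 0.47% of all measured genes were. On the Bcl-2-labelled array, 136 were measured with a median of -0.043, and 0 were called higher and 1 lower, where 0.557% and 2% of all genes were. With the sign turned, the counts of higher and lower genes change places. These shares are near those of all genes.

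The genes called were all outside the neurotrophin and ErbB receptors. Mdk, which encodes the growth factor midkine, was at 1.78 on the withdrawal array, against -1.69 on the other, where it was the 1 gene called. Kitlg, the gene of stem cell factor, was at 1.36 with all 3 probes above 0, and at -0.97. Vgf, a gene known for its response to neurotrophins, was at 1.24 and -0.999, just short of a call. Sh2b2, an adaptor of receptor tyrosine kinases, was the 1 gene called lower on the withdrawal array, at -1.11, and was at 0.60 on the other.

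Among the 12 neurotrophin receptors and coreceptors, members included, all were measured on the withdrawal array, with 10 above 0 and a median of 0.24. On the Bcl-2-labelled array, 10 were measured, with 8 below 0 and a median of -0.17. Sorcs2, a receptor for the BDNF precursor, was the farthest from 0 beside Ntrk2, at 0.72 and -0.81. Sort1 was at 0.074 and -0.087, and Sorcs1 at 0.25 and -0.35. Sorcs3 was measured in red alone on the withdrawal array, at 0.29 (at least 1.22-fold brighter in red). On the other array it was measured in green alone, at 0.038, or -1.23 by the Feature Extraction ratio. Lingo1 and Nradd, which encode partners or relatives of p75, were at 0.15 and -0.21 and at 0.10 and -0.13. Rtn4r at 0.32 and Sorl1 at 0.23 were measured on the withdrawal array alone, in red alone.

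For neurotrophin processing and secretion, all 7 measured genes were above 0 on the withdrawal array, with a median of 0.46. On the other array all 7 were below 0, with a median of -0.18. Of all measured genes 54.2% and 48.2% were above 0. By the Feature Extraction ratio Serpini1 lay below 0 on the withdrawal array, at -0.28. Scg2 was measured in red alone on the withdrawal array and in green alone on the other. None was called. Plat, the gene of tissue plasminogen activator, which through plasmin can cut the BDNF precursor, was the farthest from 0 on the withdrawal array, at 0.96, and was at -0.81 on the other.

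None of the ligands of the ErbB receptors was called. Of 9 on the array, 5 were measured on the withdrawal array with a median of 0.18, and 6 on the other with a median of 0.032. Areg was at 0.29 and -0.15, Egf at 0.18 and -0.080, Tgfa at -0.024 and 0.13 and Hbegf at -0.048 and 0.044. The neuregulin gene Nrg1 was measured in red alone on the withdrawal array, at 0.35 (at least 1.26-fold brighter in red). On the other array it was measured in green alone, at 0.020. As for Bdnf, its ratio depended on the processing, and the Feature Extraction ratio was 2.64 and -0.86. Which step moved it was not tested. On the Bcl-2-labelled array the sign of Nrg1 thus differed between these ratios. Nrg4 was measured on the Bcl-2-labelled array alone, at 0.30.

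Among the lists of adaptors, shared signalling core, inhibitors and ligand proteases, Sh2b2 was the 1 gene called. The RAS, ERK, PI3K and AKT core that both receptor families share had a median of -0.037 over 29 measured genes on the withdrawal array, against 0.039 over 29 on the other. Its farthest gene on the withdrawal array was Rps6ka1, the gene of an ERK-activated kinase, at -0.89 and 0.61 on the other. Neurotrophin receptor adaptors had a median of 0.060 over 22 genes and -0.030 over 20. ErbB inhibitors and turnover had a median of 0.061 over 14 genes, with Memo1 the farthest at -0.70, and 0.054 over 14 on the other, where Memo1 was at 0.38. ErbB adaptors and transport had a median of 0.070 over 10 genes, with Pik3r3, a regulatory subunit of PI3K, at 0.87, and -0.18 over 9, with Pik3r3 at -0.29. The proteases that release EGF-like ligands had a median of -0.059 over 8 genes and 0.068 over 7, with Rhbdl2 at 0.49 and, in green alone, at -0.36.

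**Figure D5:**
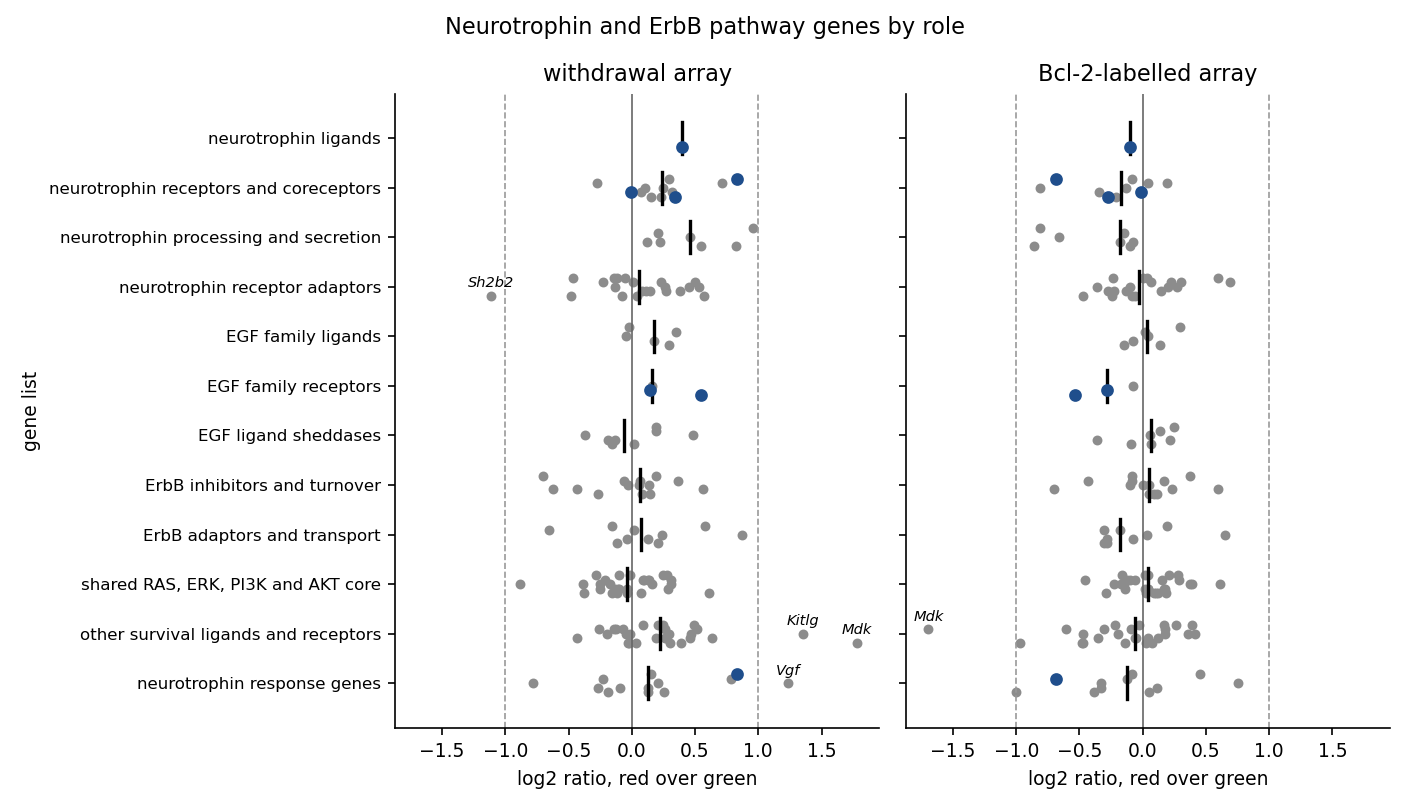
Log2 ratio of red over green (x axis) of the measured genes of each list (y axis) on the withdrawal array (left) and the Bcl-2-labelled array (right); blue points are among the 8 genes described, black bars are list medians, dashed lines mark 2-fold and called genes are named. Mdk, at 1.78 and -1.69, is called on both arrays.

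The labelled cell type was checked against marker lists. Of 13 neural stem and progenitor markers 12 were on the array, and all 12 were well above background in at least 1 of the channels. Their median was 0.26 over 12 genes on the withdrawal array, against -0.27 over 11 on the other. Msi1 was measured on the withdrawal array alone, in red alone, at -0.048. Nes was at 0.18 and -0.28, Sox2 at -0.12 and -0.27, Pax6 at 0.23 and -0.14 and Vim at -0.49 and 0.56. Notch1 was at 0.28 and -0.25, Hes1 at 0.52 and -0.69, Prom1 at 0.55 and -0.56 and Slc1a3 at 0.75 and -0.75. Hes5 was at 0.61 and 0.087, and Hmga2 at -0.21 and, in green alone, at -0.25. Fabp7, the radial glia gene called on the withdrawal array, was at 1.26 and -0.91. The Bcl2 probe, which may or may not lie in the transfected sequence, was at 0.39 and -0.023.

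Astrocyte genes moved along with Ntrk2 and Egfr, both of which astrocytes and radial glia are known to express. Of 11 on the array 10 were measured, all above 0 on the withdrawal array with a median of 1.05 and 5 called higher, and all below 0 on the other with a median of -0.97 and 4 called lower. The summed level of their 15 probes was 98099 in red and 42454 in green of the withdrawal array, and 47621 in red and 96879 in green of the Bcl-2-labelled array. Gfap was not well above background in any channel, and the list ran from Aqp4 at 0.12 to Apoe at 3.54 on the withdrawal array. The part of this list in the Ntrk2 and Egfr ratios was not tested. In RNA from whole cultures, more cells of a type and more RNA per cell cannot be told apart.

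The other marker lists had medians nearer 0 than the astrocyte list on the withdrawal array, choroid plexus and ependyma being closest to it. Neuron markers had a median of 0.22 and -0.046 over 11 genes, from Elavl4 at -0.26 to Tubb3 at 1.03 on the withdrawal array. Oligodendrocyte lineage had medians of 0.075 and -0.013, from Gpr17 at -0.22 to Pdgfra at 0.51. Neural crest and Schwann had 0.13 and -0.15, from Egr2 at -0.50 to Ednrb at 1.38, and fibroblast and meninges 0.32 and -0.35, from Twist1 at -0.15 to Acta2 at 2.19, with 1 of 11 called higher on the withdrawal array and 4 of 10 called lower on the other. Choroid plexus and ependyma, with 4 measured, had 0.91 and -1.16, from Aqp1 at -0.016 to Foxj1 at 1.95, with 1 of 4 called higher and then 3 of 4 called lower. These lists thus also ran in the direction of Ntrk2 and Egfr, and their part in those ratios was not tested. Microglia and blood had -0.068 and 0.13, from Hba-a1 at -0.83 to C1qb at 0.40, with Ptprc, Itgam, Hbb and C1qa not well above background. Of 10 endothelium and pericyte genes 3 were measured, from Cdh5 at -0.0051 to Kdr at 0.39, with Pecam1 among those not well above background.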

How the data were processed

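RNA of 2 two-colour Agilent arrays was analysed. Per the file headers, the deposited median spot and background intensity, not normalized, came from Feature Extraction 11.5.1.1 (protocol GE2_1105_Oct12, design 028282, build rn4). The version in the submitters' processing notes is 8.5.1.1. The files also hold deposited background-subtracted signals, the deposited log10 ratio (red over green), its error, deposited flags of 0 or 1, and a deposited p-value for spot noise that is not printed. In the authors' deposited value table each column is a linear ratio of unstated scale, centring and direction. Set against the scanner values of 28395 probes printed once, column 1 matched red over green on the withdrawal array for 100%. Column 2 matched the product of both arrays' ratios for 100% and the ratio of its own array for 7.06%, within 0.05 on the log2 scale after a constant, so the quotient of the columns was used for the Bcl-2-labelled array.

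Both arrays lay on 1 slide in 1 scan. Of 42877 gene spots 534 and 576 outliers were left out. Background-subtracted signals had medians from 124 to 281 over the 4 channels, with 66.1% to 72.0% of spots well above background, and 0 spots were saturated. The number of arrays limits the precision. Median signals were corrected by normexp (offset 50) and loess in limma 3.58.1 (R 4.3.3), giving control spots weight 0, tested on simulated data. The mean signals the plan assumed were not used here. Levels between arrays were scaled by Aquantile. Counts used Python 3.11.15, numpy 2.4.6 and pandas 2.3.3, and plots matplotlib 3.10.9. Repeated spots were averaged per probe, and a gene is the median over probes of which at least 50% of spots were well above background in a channel. Probes were named through RefSeq GRCr8 (60.4% of them). An "at least" fold divides the bright channel by the dim one or by the lowest level counted as well above background, whichever is higher.

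The members and lists were chosen with earlier results of these data known. The genes named are all members, in each list the called genes or else the 1 farthest from 0, all measured ligands and receptors, progenitor markers, the highest and lowest of other marker lists, and Bcl2. Some items these rules take in are not reported here. Genes nearest to a member were to be named for called members, of which there were 0. Alternatives were another offset (10), no background subtraction, median centring, the Feature Extraction ratio, the value table, other filters and probe rules, and a 1.5-fold limit.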

Additional observations from a re-analysis of the deposited data

Results flagged for a closer look

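Of the 6 measured genes, 5 had log2 ratios of opposite sign on the arrays: Bdnf at 0.40 and -0.10, Ntrk2 at 0.83 and -0.69, Ntrk3 at 0.34 and -0.28, Egfr at 0.55 and -0.54, and Erbb2 at 0.15 and -0.28. They stand here because their ratio lay above 0 in 1 comparison and below 0 in the other. With 1 array for each comparison the difference was not tested. The arrays are labelled as sharing their control, and 74.1% of all genes measured on both had opposite signs too.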

How the results depend on the processing

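The median of the measured members kept its sign on both arrays under all 8 alternatives run for it, between 0.19 and 0.50 on the withdrawal array and between -0.38 and -0.17 on the Bcl-2-labelled array. Of 94 member ratios under alternatives, 90 moved by less than 1.5-fold and 4 by more, and 4 had the other sign: Ngfr in 3 and Ntrk2 in the value table, at 0.72 on the Bcl-2-labelled array. Members called, 0 by the main rule, numbered 2 on the withdrawal array with the Feature Extraction ratio (Bdnf and Ntrk2) and 1 with the value table, with median centring and with a 1.5-fold limit. On the Bcl-2-labelled array they numbered 1 with the Feature Extraction ratio and with the value table. Pathway genes called higher on the withdrawal array went from 3 to 16 with the Feature Extraction ratio, 15 with the table, 10 at 1.5-fold, 7 with offset 10 and 6 with median centring, while those of all genes went from 263 to 887, 869, 862, 445 and 473. Those called lower went from 1 to 3, 3, 6, 1 and 0. On the Bcl-2-labelled array, those called higher went from 0 to 3 with the Feature Extraction ratio, 3 with the table and 6 at 1.5-fold. Those called lower went from 1 to 7, 7 and 9, to 3 with offset 10 and with median centring, and to 2 without background subtraction and with the brightest probe. The count of 7 of 10 probes in the channel comparison became 1 on unnormalized net signals and 9 without Aquantile. Unnormalized red and green signals differ in scale, so the count of 1 cannot show which channel is nearer. Over all genes, calls lower on the withdrawal array went from 51 to 237 with the Feature Extraction ratio and 233 with the table. They numbered 303 at 1.5-fold, 91 with offset 10 and 34 with median centring. On the Bcl-2-labelled array, calls higher went from 57 to 358 with the Feature Extraction ratio, 351 with the table and 235 at 1.5-fold. In the same order, calls lower went there from 205 to 690, 679 and 680. They numbered 271 with offset 10 and with median centring, 220 without background subtraction and 231 with the brightest probe. The cause of these changes was not tested. No paired analysis was possible because each comparison has 1 array, and for the same reason no replicate could be left out. Bdnf and Ngfr lie near background, where repeated spots of dim probes varied with a median SD of 0.12 and 0.097 on the arrays, against 0.030 on both for bright probes.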
